A study of Mus musculus with 6 samples.

Results

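Olfr1 to Olfr289 are the low-numbered members of the mouse olfactory receptor family, the receptors that were named early and that include many of the best studied ones. A gene was counted as a member when at least 1 probe set of the array carried its symbol and no other, and the probe set with the highest mean over the 6 arrays stood for the gene. This gave 187 of the 19937 genes measured in the study, on 15 chromosomes, and the other 828 numbered receptors served as the comparison. RefSeq's mouse table (GRCm38.p6) lists 205 receptors in this range, and 18 of them, Olfr78 and Olfr160 among them, appear only on probe sets shared with other genes. RNA came from the olfactory epithelium (septa and turbinates) of C57BL6 pups at P0, the day of birth, bred from heterozygous parents. Pups without Atf5 (Atf5-/-, the knockout) were compared with wild-type pups (Atf5+/+) in 3 samples each, every sample a separate pool of 3 pups taken from more than 1 litter, on an array of its own. The labels name no treatment, and both groups share strain, age and tissue. Which stretch of Atf5 is missing is not stated, so its probe set may or may not lie in it.

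Olfactory receptors are G protein-coupled receptors that bind odorants on the cilia of olfactory sensory neurons. Each mature neuron transcribes a single receptor allele, chosen from the whole family, so a receptor's RNA level in whole tissue follows both the number of neurons that chose it and the amount each neuron makes. Newly made receptor protein is known to engage the unfolded protein response in the endoplasmic reticulum of the young neuron, which raises translation of the transcription factor Atf5, and this step is known to stabilise the choice and to let the neuron mature. In these bulk samples fewer cells and less RNA per cell cannot be told apart.

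Atf5 itself read 9.43, 9.44 and 9.50 (log2) in knockout arrays against 10.54, 10.96 and 10.63 in wild-type arrays, and it was 2.38-fold lower in the knockout (95% interval 2.03 to 2.80, limma adjusted p = 0.000499). Array medians over all genes lay between 9.00 and 9.03. Pearson correlations over genes were 0.994 to 0.996 for pairs of arrays of a genotype and 0.986 to 0.992 between genotypes. Omp, the olfactory marker protein of mature neurons, read 11.63, 11.00 and 11.40 in the wild type, so olfactory neurons were present. The enamel gene Amelx read 12.22, 11.58 and 10.60 there, so Omp does not show that the samples were olfactory epithelium alone.

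Low-numbered receptors were lower in the knockout almost throughout. Of the 187 genes, 71 (38.0%) fell by limma with adjustment over all 19937 genes, and 116 did not pass the test. Of all genes, 3.24% fell in this way, and 3.74% changed in either direction. No low-numbered receptor rose by this test (0.502% of all genes did), while 127 were lower and 1, Olfr151, was higher at an unadjusted p under 0.05. At that unadjusted threshold, 1650 of all 19937 genes were lower and 1559 higher. A change below 0 was measured for 181 of the 187, against 47.0% of all genes and 44.5% of those outside the family. In 131 of the 187 receptors (70.1%) every knockout array lay below every wild-type array, which held for 10.3% of all genes. All 71 receptors that fell belong to these 131.

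The typical change was small. The log2 change (knockout minus wild type) had a median of -0.27 over the 187 receptors, with quartiles of -0.52 and -0.14, against a median of 0.01 over all genes. The median level over these receptors was 7.37, 7.39 and 7.36 in knockout arrays against 7.73, 7.66 and 7.68 in wild-type arrays, so the genotypes did not overlap. Wild-type replicate 1 held the highest value of the 6 arrays for 102 of the 187 receptors, wild-type replicate 2 for 40 and wild-type replicate 3 for 32, which leaves 13 with their highest value in a knockout array. Arrays of a genotype differed by a median SD of 0.08 in the knockout and 0.10 in the wild type. When arrays were left out in turn, the count of 71 was lowest when knockout replicate 1 (47) or wild-type replicate 1 (48) was dropped and 56 to 63 otherwise. Of the 71, 38 passed in each of these 6 fits. With the replicate number as a block 88 fell, all 71 among them. With the mean of enamel genes as a covariate 0 of the 71 passed, and with that of skeletal muscle genes 36 receptors did, as given with the marker genes further on.

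**Figure D1:**
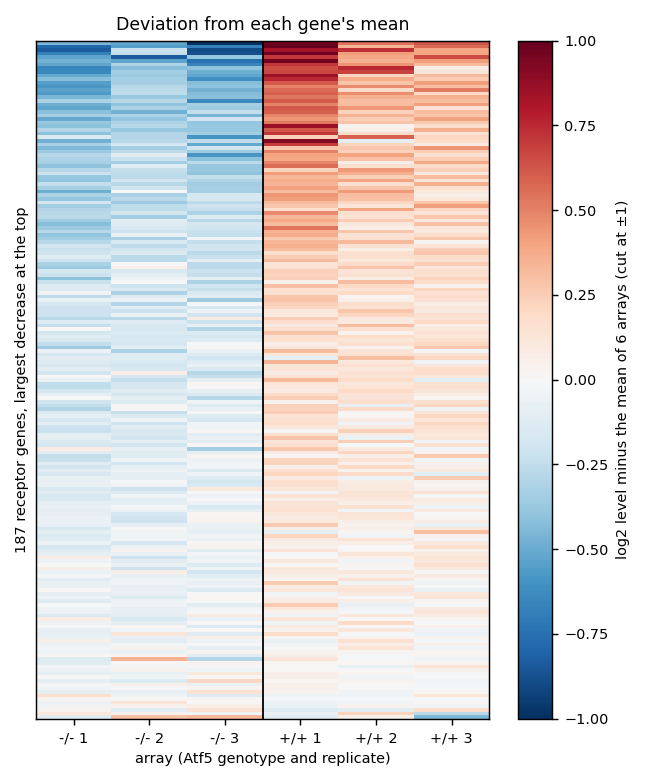
Deviation of each of the 187 low-numbered receptors (rows, largest decrease at the top) from its own mean over the 6 arrays (columns), on the log2 scale, with blue below and red above the mean. In 101 rows all 3 knockout columns are blue and all 3 wild-type columns red, and wild-type replicate 1 is the highest array for 102 receptors.

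Counts over the rest of the family were close to these. Among the 828 receptors with higher numbers, 285 (34.4%) fell and 2 rose, and their median was also -0.27. Whether the shares of 38.0% and 34.4% differ was not tested. A decrease of at least 2-fold was measured for 6 low-numbered receptors, 28 of the others and 74 (0.371%) of all genes.

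**Figure D2:**
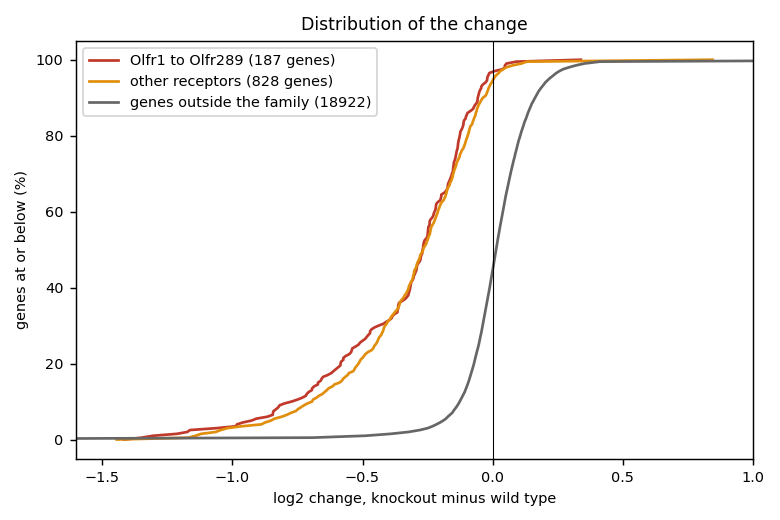
Cumulative share of genes (percent) at or below a given log2 change for the 187 low-numbered receptors, the 828 other receptors and the 18922 genes outside the family. Both receptor curves lie to the left of 0 and almost on each other, with a median of -0.27 each, while the curve of the other genes is centred near 0.

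Olfr15 showed the largest decrease of the group. This class II receptor of the MOR256 subfamily read 9.36, 9.29 and 8.64 in the knockout against 10.77, 10.35 and 10.42 in the wild type. Every wild-type array lay above every knockout array, and the fall was 2.67-fold (2.01 to 3.55, adjusted p = 0.00339). Olfr170 followed, with 7.87, 8.10 and 7.98 in the knockout against 9.76, 9.00 and 9.23 in the wild type, 2.54-fold lower (1.96 to 3.28, adjusted p = 0.0027). Olfr115 read 8.08, 8.69 and 8.01 against 9.75, 9.64 and 9.30, 2.46-fold lower (1.87 to 3.25). Here knockout replicate 2 was the highest of its genotype but still below the wild type. Olfr167 was 2.28-fold lower (1.71 to 3.05), Olfr239 2.24-fold (1.85 to 2.72) and Olfr168 2.24-fold (1.77 to 2.83). Olfr220 and Olfr69, at a log2 change of -0.99 each, completed the 8 largest decreases. All 8 passed in each fit with 1 array left out (highest adjusted p = 0.043, for Olfr69).

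The sequence around the annotated gene starts of the 3 receptors with the largest decreases is shown because these genes carry the strongest change. Each run holds 250 bases before and 50 after the gene start in RefSeq (GRCm38.p6), read along the gene from 5′ to 3′. In Olfr15 and Olfr170 the annotated start is an ATG, so it may be the coding start, and the window may not reach the promoter. None of the motifs searched for below lies in these windows, so none has capitals.
Olfr15 chr16:3838725-3839024 plus strand: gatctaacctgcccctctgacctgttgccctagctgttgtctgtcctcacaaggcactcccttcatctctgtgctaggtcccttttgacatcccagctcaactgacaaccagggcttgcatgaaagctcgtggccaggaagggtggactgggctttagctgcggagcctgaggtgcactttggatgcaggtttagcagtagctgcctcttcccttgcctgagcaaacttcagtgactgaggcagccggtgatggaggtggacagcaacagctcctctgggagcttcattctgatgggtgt
Olfr170 chr16:19606617-19606916 minus strand: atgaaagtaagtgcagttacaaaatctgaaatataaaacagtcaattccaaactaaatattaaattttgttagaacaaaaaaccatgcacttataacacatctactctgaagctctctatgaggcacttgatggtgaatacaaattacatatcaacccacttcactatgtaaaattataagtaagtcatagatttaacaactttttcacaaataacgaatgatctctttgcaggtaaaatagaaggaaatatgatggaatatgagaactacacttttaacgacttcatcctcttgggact
Olfr115 chr17:37610730-37611029 minus strand: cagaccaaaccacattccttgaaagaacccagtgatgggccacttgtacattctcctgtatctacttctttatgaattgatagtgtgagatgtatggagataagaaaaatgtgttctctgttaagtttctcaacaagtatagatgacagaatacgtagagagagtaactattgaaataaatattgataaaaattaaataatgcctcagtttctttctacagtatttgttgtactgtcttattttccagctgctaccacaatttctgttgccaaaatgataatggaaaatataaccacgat

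On chromosome 16, apart from Olfr15, the largest decreases were those of Olfr167, Olfr168 and Olfr170, which sit in 1 run. Of the 34 receptors measured there 11 fell, and the median change was -0.20. In the run from Olfr164 to Olfr171, 4 of 7 fell, with a median of -0.71. In gene order the changes were -0.15 for Olfr164, -0.07 for Olfr165, -0.67 for Olfr166, -1.19 for Olfr167, -1.16 for Olfr168, -1.34 for Olfr170 and -0.71 for Olfr171. Olfr164, Olfr165 and Olfr171 did not pass (adjusted p = 0.293, 0.774 and 0.0683), though Olfr171 did with the block (0.0293) and changed about as much as Olfr166. A probe set shared by Olfr169, Olfr170 and Olfr171 changed by -0.92 and did not pass (adjusted p = 0.0757 in a limma fit of all 34760 rows). In Olfr167 the knockout arrays read 8.09, 8.52 and 7.88 and the wild-type arrays 9.73, 9.18 and 9.16. In Olfr168 they read 8.55, 8.50 and 8.28 against 9.99, 9.38 and 9.44. Wild-type replicate 1 was the highest array for all 5 receptors from Olfr166 to Olfr171. The call of Olfr166 (adjusted p = 0.0439) was kept only in the fit that dropped wild-type replicate 3 (highest adjusted p = 0.114 in the other fits). The next run, Olfr172 to Olfr206, held 24 measured receptors, of which 5 fell, with a median of -0.17. These were Olfr173 (-0.58), Olfr195 (-0.36), Olfr199 (-0.28), Olfr201 (-0.60) and Olfr202 (-0.35), and the call of Olfr199 was lost whichever array was dropped (highest adjusted p = 0.121). Olfr195 kept its call only when wild-type replicate 3 was dropped (highest 0.126), and Olfr202 lost it when wild-type replicate 1 or 3 was (highest 0.062). The difference between the runs was not tested, and the members of these runs are named here because their values stood out.

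Chromosome 17 carries the group linked to the major histocompatibility complex, a long row of receptor genes beside the class I histocompatibility genes. Of its 40 measured receptors from Olfr90 to Olfr136, 14 fell, and the median change was -0.24. Decreases stood between receptors that did not pass. Olfr115 (-1.30), its neighbour Olfr116 (-0.98) and Olfr136 at the end of the row (-0.92) fell most, and the measured neighbours Olfr96 (-0.54), Olfr97 (-0.54), Olfr99 (-0.65) and Olfr101 (-0.43) all fell. The probe set shared by Olfr97 and Olfr98 (-0.26, adjusted p = 0.290) did not pass in a limma fit of all 34760 rows. Neither did that of Olfr100 and Olfr102 (-0.30, adjusted p = 0.521). The calls of Olfr97 and Olfr99 were lost when knockout replicate 1 was dropped (both 0.0524), that of Olfr99 also when wild-type replicate 1 or 2 was (highest 0.0732), and that of Olfr101 when knockout replicate 2 was (0.056). Olfr116 read 8.04, 8.34 and 8.19 in the knockout against 9.35, 9.36 and 8.80 in the wild type. Directly beside it, Olfr117 (-0.13), Olfr118 (0.07) and Olfr119 (0.05) did not pass. Olfr239 and Olfr63, which sit elsewhere on the chromosome, both fell. Olfr239 read 9.38, 9.07 and 9.52 in the knockout against 10.62, 10.29 and 10.56 in the wild type, and Olfr63 changed by -0.66.

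Class I receptors, an older branch that is known to sit together on chromosome 7 and to be expressed in the dorsal zone of the epithelium, were represented by 8 genes, of which 3 fell. Of the 6 receptors that flank the beta-globin genes, 2 fell, both on the same side. On the 3′ side, Olfr69 read 6.17, 6.40 and 6.42 in the knockout against 7.48, 7.58 and 6.90 in the wild type, 1.98-fold lower (1.54 to 2.54, adjusted p = 0.00943). Its log2 change went from -0.99 to -0.43 with the enamel mean as a covariate, and its call was lost with the muscle mean too (adjusted p = 0.0644). Olfr68 read 7.50, 7.52 and 7.36 against 8.31, 8.18 and 8.11, 1.67-fold lower (1.49 to 1.88, adjusted p = 0.00119). Olfr67, the third on this side, was at -0.36 and did not pass (adjusted p = 0.0753; 0.0156 with the replicate number as a block). On the 5′ side Olfr64 (-0.04), Olfr65 (-0.14) and Olfr66 (-0.10) did not pass (adjusted p = 0.861, 0.318 and 0.474), and the knockout and wild-type arrays of Olfr64 overlapped at 7.37, 7.39 and 7.57 against 7.51, 7.48 and 7.45. No test compared the sides. Of the other class I members, Olfr33 fell (-0.56, adjusted p = 0.0432) and Olfr243 was at -0.27 (adjusted p = 0.249). Olfr33 kept its call only in the fits that dropped knockout replicate 2 or wild-type replicate 3 (highest adjusted p = 0.15 in the others).

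**Figure D3:**
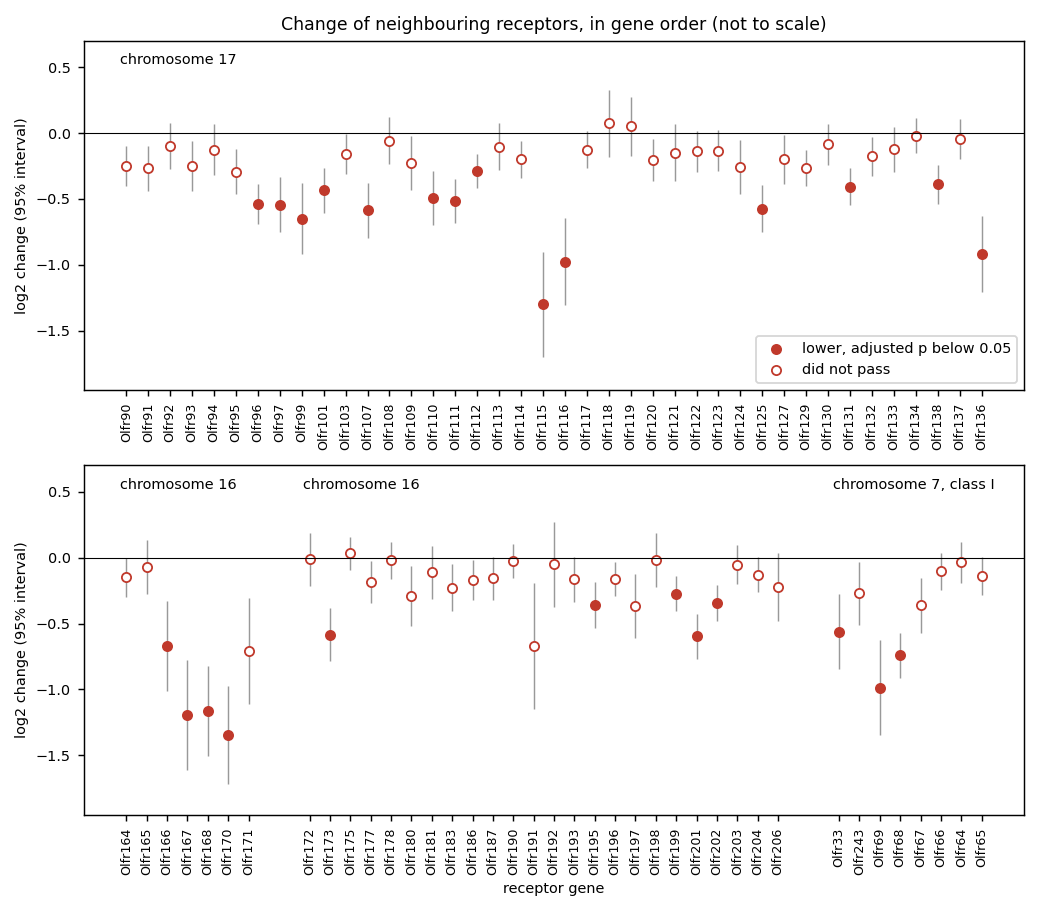
Log2 change (knockout minus wild type) with its 95% interval for neighbouring receptors in gene order along chromosome 17 (top) and for 2 runs on chromosome 16 and the class I genes on chromosome 7 (bottom), with filled points for receptors that fell. Strong decreases such as Olfr115 (-1.30) and Olfr170 (-1.34) stand beside receptors near 0 such as Olfr118 (0.07) and Olfr165 (-0.07).

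Changes of neighbours and of distant receptors were set side by side. Adjacent pairs were measured receptors with no other protein-coding gene or transcribed pseudogene between them. Over 85 such pairs the median absolute difference in log2 change was 0.21, against 0.24 over 15329 pairs on different chromosomes. Both members fell in 12 of the adjacent pairs and only 1 in 32. These pairs share members and can share probe sequence, so the values are a description.

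Several receptors used as models of receptor choice and odorant detection were measured. Olfr17, the P2 receptor of axon targeting studies, read 7.57, 7.65 and 7.61 in the knockout against 8.56, 8.38 and 8.38 in the wild type, 1.78-fold lower (1.60 to 1.98, adjusted p = 0.000505). The groups lay far apart for their spread, with SDs of 0.04 and 0.10. Its neighbours on chromosome 7, Olfr6 (M50) and Olfr2 (I7, a receptor for octanal), fell too. Olfr6 read 8.36, 8.44 and 8.36 against 9.27, 9.03 and 9.01, 1.64-fold lower (1.45 to 1.86). Olfr2 read 6.57, 6.87 and 6.84 against 7.32, 7.12 and 7.29, 1.40-fold lower (1.21 to 1.62, adjusted p = 0.0209), and its call was lost when knockout replicate 1, or replicate 1 or 3 of the wild type, was dropped (highest adjusted p = 0.0933), under quantile normalization (0.0619) and with the muscle mean (0.117). Olfr62 fell by 0.50 (SE 0.08), with 6.50, 6.42 and 6.63 against 7.10, 6.91 and 7.05, and did not pass with the muscle mean (adjusted p = 0.0527).

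Other well-known receptors changed less and did not pass. Olfr16 (MOR23, a receptor for lyral) read 7.58, 7.57 and 7.72 in the knockout against 7.89, 8.06 and 7.87 in the wild type (adjusted p = 0.0554), without overlap, and passed with the replicate number as a block (0.0436) or with knockout replicate 3 dropped (0.0438). Olfr124 (SR1, a broadly tuned receptor) was at -0.26 (adjusted p = 0.193; 0.0355 with the block). Olfr73 (mOR-EG, a receptor for eugenol) read 7.01, 7.06 and 7.16 against 7.22, 7.27 and 7.25, a change of -0.17 (95% interval -0.31 to -0.03, adjusted p = 0.223). Its relative Olfr74 (mOR-EV) was at -0.11 (95% interval -0.25 to 0.03, adjusted p = 0.438). In Olfr73 and in Olfr74 the 3 knockout arrays lay below the 3 wild-type arrays, but close to them.

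The OR37 receptors, whose neurons are known to lie in a small central patch of the turbinates, did not all pass. Olfr155 (OR37A) fell, reading 7.10, 7.17 and 7.15 in the knockout against 7.73, 7.65 and 7.47 in the wild type, 1.39-fold lower (1.23 to 1.56, adjusted p = 0.00967). Its call was lost with the muscle mean (0.0665), and its log2 change went from -0.47 to -0.27 with the enamel mean. Olfr157 (OR37C) was at -0.25 (adjusted p = 0.0924; 0.0437 with the block). Olfr156 (OR37B) was at -0.15 (95% interval -0.32 to 0.01, adjusted p = 0.359). A probe set shared by Olfr155, Olfr159 and the pseudogene Olfr29-ps1 changed by -0.31 (adjusted p = 0.345 in a fit of all 34760 rows).

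**Figure D4:**
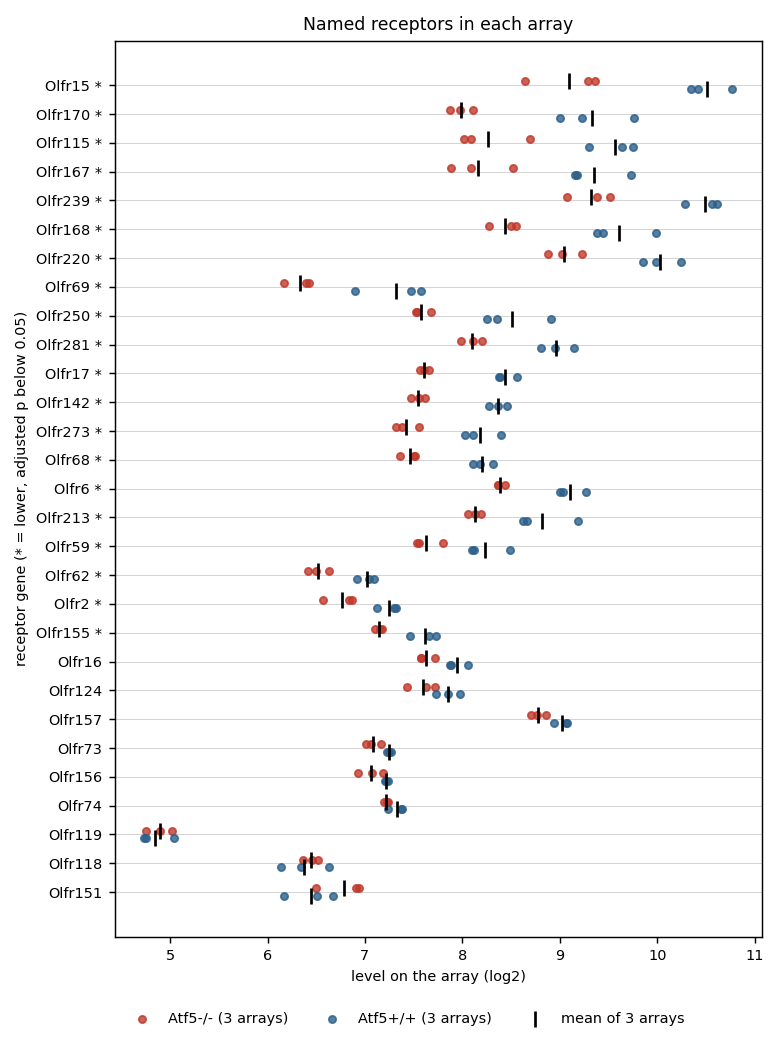
Log2 level of 29 named receptors in each array (red, Atf5-/-; blue, Atf5+/+), with the mean of 3 arrays as a black tick and the largest decrease at the top. From Olfr15 down to Olfr155 the red and blue points do not overlap and the decrease passed the test, and at the bottom the points of Olfr119, Olfr118 and Olfr151 overlap.

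The median change was below 0 on every chromosome, from -0.13 on chromosome 10, where none of 3 receptors passed, to -0.58 on chromosome 13, where both did. On chromosome 7 (17 receptors) 8 fell, on chromosome 9 (18) 7, on chromosome 2 (15) 5, on chromosome 11 (14) 5, on chromosome 4 (12) 4, on chromosome 15 (8) 4, on chromosome 6 (9) 2 and on chromosome 1 (6) 2, the last 4 with the block. Of the 12 receptors on the 5 chromosomes with fewer members, 7 fell. All 8 receptors of chromosome 15, a single run, had knockout arrays below the wild type, led by Olfr281 with 7.98, 8.20 and 8.11 against 9.15, 8.80 and 8.95 (1.83-fold lower, 1.58 to 2.12). The largest decrease on chromosome 9 was Olfr250 (-0.93, SE 0.15), on chromosome 2 Olfr142 (-0.82, SE 0.07), on chromosome 4 Olfr273 (-0.76, SE 0.10), on chromosome 6 Olfr213 (-0.69, SE 0.13), on chromosome 11 Olfr59 (-0.61, SE 0.12) and on chromosome 1 Olfr220 (-0.99, SE 0.12). Olfr142 was among the most even of them, with 7.47, 7.55 and 7.62 in the knockout against 8.46, 8.27 and 8.36 in the wild type. Of these, Olfr213 lost its call when any knockout array was dropped (highest adjusted p = 0.0825), and its log2 change was -0.40 with the enamel mean. Olfr59 lost its call when knockout replicate 1 or 3 was dropped (highest 0.0813), under quantile normalization (0.0568) and with the muscle mean (0.085).

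Receptor subfamilies defined by protein sequence (the MOR numbers among the RefSeq synonyms, given for 182 of the 187 genes) cut across chromosomes. The largest, MOR256, had 23 measured genes, of which 7 fell, with a median of -0.18. Its members ran from Olfr15 (-1.42), Olfr136 (-0.92) and Olfr263 (-0.84) to Olfr134 (-0.02). In MOR262, which holds the OR37 receptors, 3 of 11 fell (Olfr273, Olfr270 and Olfr155), and 5 did with the block. In MOR218, 4 of 7 fell, among them Olfr115 and Olfr116. In MOR183, a subfamily of chromosome 16, none of 7 passed by limma, although 5 were lower at an unadjusted p under 0.05 and Olfr191 was at -0.67 (adjusted p = 0.151). With the block 1 of them passed, Olfr197 (-0.37, adjusted p = 0.0196). Large and small changes stood within the same subfamily.

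The probe set of Olfr151 (M71, a receptor for acetophenone) was the only one with a sizeable positive value. It read 6.50, 6.91 and 6.94 in the knockout against 6.50, 6.67 and 6.16 in the wild type, a change of 0.34 (SE 0.15, adjusted p = 0.299). The groups overlapped, and the change did not pass. RefSeq's table lists Olfr151 as a transcribed pseudogene. A second probe set, shared by Olfr151 and Olfr160 (M72, its close relative), went the other way, at -0.16 (SE 0.07, adjusted p = 0.422 in a fit of all 34760 rows). The next highest values, Olfr118 (0.07) and Olfr119 (0.05), were close to 0. Both changed sign with an array left out, Olfr118 to -0.042 without wild-type replicate 3 and Olfr119 to -0.014 without knockout replicate 3.

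Probe sets shared by several genes gave the same direction. Of the 34 that name a receptor of this range, 33 were below 0, 12 were lower past the threshold in the fit of all rows and 0 higher, with a median of -0.40. Shares over all rows of that fit are not given here. In the fit of genes 47.0% were below 0 and 3.24% fell. Several of the 34 name the same receptors, and many also name receptors outside the range, so they are not separate measurements. The largest decrease was on the probe set of Olfr55 and Olfr1564, at 8.66, 8.68 and 8.79 in the knockout against 10.78, 10.34 and 10.64 in the wild type (-1.88, SE 0.11). The probe set of Olfr78 and Olfr560 was at -0.06 (SE 0.07, adjusted p = 0.769). Of the members, 2 had a second probe set of their own. For Olfr263 they gave -0.84 and -0.97, and for Olfr54 they gave -0.31 and -0.30.

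Brighter probe sets showed larger changes. When the 187 receptors were split into 3 groups by their mean over all 6 arrays, 15 of 63 fell in the lowest group (median -0.20), 24 of 62 in the middle (-0.26) and 32 of 62 in the highest (-0.36). The other receptors within the same ranges of level gave 20.2%, 39.4% and 50.7%. Only 8 of the 187 receptors had a mean above the median gene of the array. All 6 decreases of at least 2-fold lay in the highest group. The part of background signal in this trend was not tested.

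**Figure D5:**
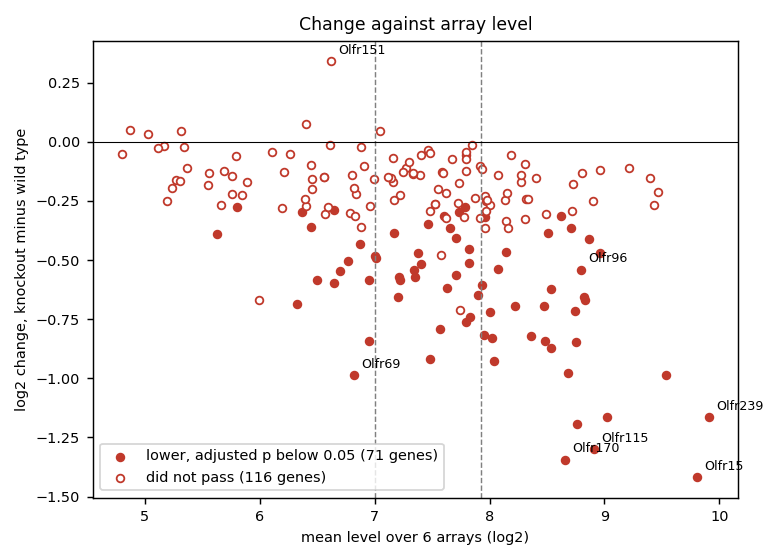
Log2 change (knockout minus wild type) against the mean level over 6 arrays for the 187 receptors, with filled points for the 71 that fell and dashed lines between the 3 level groups. Decreases beyond -1 are all to the right of the second line, and Olfr151 stands alone at the top.

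RefSeq windows of this kind were given for 147 of the 187 receptors (148 windows), 55 of which fell, and there were 719 windows of the other receptors. In 90 of the 148 windows (60.8%) the annotated start is an ATG, against 74.8% for the other receptors and 5.83% of all windows. Many of the receptor windows may thus lie before the coding start and not at the promoter, and the shares are of windows, not of known promoters. Letters of known binding sites were searched on both strands. TAATTA, a core bound by homeobox factors such as Lhx2, was in 20 of the 148 windows (13.5%), in 19.5% of those of the other receptors and in 5.29% of all 32851 windows. Of the 20 receptors with it 4 fell, with a median change of -0.18. The palindromic site of the Ebf factors was in 3 windows (2.03%, against 0.139% for the other receptors and 0.904% of all), those of Olfr96, Olfr99 and Olfr108, of which Olfr96 and Olfr99 fell. TGACGTCA, the full site of ATF/CREB factors, was in the window of Olfr224 alone (0.676%, against 0 windows of the other receptors and 1.79% of all). TGATGCAA, a composite site of C/EBP and ATF factors, was in that of Olfr165 alone (0.676%, against 1.67% for the other receptors and 0.895% of all). A match is a description of the letters and no evidence of binding. The windows of the receptors with an Ebf or a homeobox match that fell most are shown with the matches in capitals.
Olfr99 chr17:37280369-37280668 minus strand: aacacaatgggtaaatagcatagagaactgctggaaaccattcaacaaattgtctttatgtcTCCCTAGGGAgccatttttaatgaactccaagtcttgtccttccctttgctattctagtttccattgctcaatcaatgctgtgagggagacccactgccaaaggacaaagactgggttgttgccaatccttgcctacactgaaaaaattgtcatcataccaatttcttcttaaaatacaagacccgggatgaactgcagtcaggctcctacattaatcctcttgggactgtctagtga
Olfr77 chr9:19916979-19917278 plus strand: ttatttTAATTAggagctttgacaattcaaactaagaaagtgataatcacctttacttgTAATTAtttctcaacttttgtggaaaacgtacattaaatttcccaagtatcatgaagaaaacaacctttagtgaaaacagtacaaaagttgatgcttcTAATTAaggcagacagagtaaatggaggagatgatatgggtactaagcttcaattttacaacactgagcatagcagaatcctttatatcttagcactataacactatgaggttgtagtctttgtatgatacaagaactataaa
Olfr99 changed by -0.65 (SE 0.12) and Olfr77, with 3 homeobox matches, by -0.79 (SE 0.11).

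Most of the listed genes that carry the receptor signal or bring the receptor to the membrane fell too. Of 18 measured genes of this list, 14 fell, none rose and 4 did not pass, with a median of -0.95. Gnal, the G protein alpha subunit that receptors activate, changed by -2.36 (SE 0.08). Of the channel that opens on cyclic nucleotides, the subunits Cnga2 (-1.93, SE 0.14) and Cnga4 (-1.26, SE 0.10) fell, and Cngb1 did not pass (-0.21, adjusted p = 0.274). Rtp1, a chaperone that carries receptors to the cell surface, read 10.32, 10.41 and 10.17 in the knockout against 11.94, 11.78 and 11.61 in the wild type, and Rtp2 changed by -0.81. Reep1, listed with the transport genes, did not pass (-0.05, adjusted p = 0.847). Slc24a4 (-0.13) and Camk2b (-0.05) did not pass either. Of 15 genes of receptor choice, 2 fell, Atf5 itself and Ebf4 (-0.51, SE 0.07), and none rose. Lhx2 (0.05) and its partner Ldb1 (0.05), which act at receptor enhancers, did not pass.

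Markers of mature neurons moved with the receptors. Of 16 measured, 11 of them also among the 18 signalling and transport genes above, 15 fell, and their mean level was 9.19 to 9.31 in knockout arrays against 10.7 to 11.0 in wild-type arrays. Of 10 immature neuron markers 3 fell (means 11.0 to 11.2 against 11.3 to 11.4). A change below 0 was measured for 9 of these 10 (median -0.23), and 5 were lower at an unadjusted p under 0.05. By limma 0 passed among 6 precursor, 8 sustentacular, 4 horizontal basal, 10 skeletal muscle and 4 red blood cell genes. All 6 precursor genes (median 0.21) and all 10 muscle genes (0.37) had a change above 0. Over all genes, 47.0% were below 0 and 3.24% fell. Below 0 were 7 of 8 sustentacular (median -0.06), 2 of 4 horizontal basal and 1 of 4 red blood cell genes. Of 10 listed red blood cell genes only these 4 were measured. At an unadjusted p under 0.05, 3 precursor, 1 muscle and 1 red blood cell gene were higher and 1 sustentacular gene lower. With the block 2 precursor genes (Mki67 and Top2a), 2 muscle genes (Mylpf and Myh3) and 1 red blood cell gene (Alas2) rose, and 1 sustentacular gene (Cyp2g1) fell. Of 4 genes listed for vomeronasal neurons 2 fell, Gnao1 and Cnga4. Cnga4 is also expressed by olfactory neurons, and which cells gave the Gnao1 signal was not tested. Of 3 enamel genes 2 fell, with means of 8.60, 7.98 and 9.02 in the knockout against 11.6, 11.3 and 9.41 in the wild type. With the block Stmn2 of the immature neurons, Calr4 of the vomeronasal genes and Ambn of the enamel genes fell too (adjusted p = 0.048, 0.00131 and 0.0338). With the enamel mean as a covariate no receptor passed by limma (0 lower, 66 at an unadjusted p under 0.05; adjusted p of 0.152 to 1.00 for the 20 named receptors that fell) and the median was -0.24. The skeletal muscle mean was 9.98, 10.1 and 10.3 in the knockout against 8.96, 10.0 and 9.99 in the wild type. Only wild-type replicate 1 lay outside the knockout range. With this mean as a covariate 36 receptors fell. Of the receptors named above for their position, Olfr33, Olfr97, Olfr99, Olfr101, Olfr166, Olfr195, Olfr199 and Olfr202 lost their calls with it, and Olfr33, Olfr166, Olfr195 and Olfr202 also under quantile normalization. The part of these tissues in the result was not tested.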

How the data were processed

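RNA of 6 samples was hybridised to 1-colour whole-transcript arrays. Trizol extraction, RNeasy clean-up and biotin labelling were used, per the labels' protocols. The tools RMA, affy and limma stand in the submitters' processing notes. The deposited values, from 4.50 to 14.7, were read as log2 levels per probe set; for log base, tool versions and genome build, the entry is: not given in the sources used here. Values normalized by RMA hide a change shared by most transcripts, and dim probe sets compress changes. No array intensities or depth were used.

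Of 34760 rows, 21640 had 1 symbol in GEO's platform annotation, which can be old; they gave 19937 genes. The genotypes were compared in limma 3.58.1, R 4.3.3 (lmFit, eBayes, no covariate, 2-sided). Adjusted p-values follow Benjamini-Hochberg over the 19937 genes, and a call needs one under 0.05. SE is the moderated error, intervals are at 95% and SD is over 3 arrays. The procedure was tested on simulated data. Chromosomes and gene order came from RefSeq (GRCm38.p6), matched by gene number for all 187 receptors. Gene order counts protein-coding genes and transcribed pseudogenes only. A run of neighbours allows at most 5 other such genes between receptors. Members and lists were chosen with earlier results of these data known.

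Named receptors were 15 with published names, the 8 largest decreases with groups apart, the 3 highest values, as none passed upwards, and the largest decrease on each chromosome with 5 or more members; others are named for their position or their values. Naming by protein identity was not done, as protein sequences were not used here. The main fit does not pair the samples. In an alternative fit replicate numbers were taken to pair them, as same-numbered deviations from the group means correlate above 0.1 (0.295, 0.122 and 0.234). This pairing was inferred from these data. The labels do not give it, and what same-numbered samples share is not stated. Blocked values stand beside named genes and marker lists whose calls they alter and beside counts they move by over 1.5 times. Alternatives were this block, normalization, filters, probe set means, prior, covariates and leaving out arrays.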

Additional observations from a re-analysis of the deposited data

How the results depend on the processing

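Alternatives changed the counts more than the direction. No low-numbered receptor rose under any of the 15 alternatives. With the replicate number as a block, 88 low-numbered receptors fell, all 71 among them, and the count of all changed genes went from 745 to 1310; of the 29 named receptors the block changed the calls of Olfr16, Olfr124 and Olfr157 and no other. Leaving out 1 array gave 47 to 63 lower low-numbered receptors, 172 to 254 other receptors and 410 to 649 genes. Quantile normalization gave a median of -0.22 and 56 lower. A filter at the 30th percentile kept 46 of the 187 receptors and gave 25 lower (74 of the other receptors, 432 genes in all) with a median of -0.37, and a filter at the median kept 8 and gave 4 lower (15 and 286) with a median of -0.63, since most receptors lie below these levels. The enamel mean as a covariate gave 0 lower (3 and 14) with a median of -0.24, and the skeletal muscle mean 36 lower (137 and 338). A covariate that differs between the genotypes makes the fit less precise. For muscle the difference lay mainly in wild-type replicate 1. The estimates moved too, with the enamel mean from -0.99 to -0.43 for Olfr69 and from -1.42 to -1.46 for Olfr15. The parts of precision and of tissue content in the lost calls were not tested. Olfr119 turned to -0.13 and -0.028 with the enamel and muscle means; with an array left out it ran from -0.014 to 0.15, and Olfr118 from -0.042 to 0.20. Median centring, mean of probe sets and a trended, robust prior gave 73 to 75 lower. The number of arrays limits the precision.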
